A study of Mus musculus with 3 samples.

Results

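The estrogen-related receptor alpha (ESRRA) is an orphan nuclear receptor, a DNA-binding protein with no established hormone that is best known for its place at genes of energy metabolism. It reads an extended half-site, written TCAAGGTCA, whose core AGGTCA is shared by many nuclear receptors. Regions bound by such receptors lie both at promoters and far from them, often inside introns, where they can act on the host gene, on a neighbouring gene or on none. Villus cells, from which the chromatin was made, are mostly mature enterocytes, the absorptive cells of the small intestine.

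The regions described here are the ESRRA peaks that lay inside genes and away from promoters. A peak was included where its midpoint was more than 1 kb from every annotated transcript start site and between the start and end of at least 1 annotated gene. This held for 571 of 1639 peaks (34.8%), beside 489 promoter peaks and 579 intergenic peaks. The series holds 2 ESRRA ChIP libraries and 1 input library, all from adult villus cells of the duodenal epithelium of WT C57BL/6 mice kept on chow. The ChIP used an antibody against ESRRA, and the input was chromatin taken before that step. Both ChIP libraries were merged before peaks were called, and the result is a single list of positions without heights. No value below therefore has a replicate error, the list gives no read depth, and every peak counts the same. The units of the tests are peaks, which are not replicates of animals, and neighbouring peaks share a locus. All peaks were 601 bp wide, and coordinates are on mouse NCBIM37 (mm9).

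A window of 61 bases around the site is shown for peaks in which TCAAGGTCA lay nearest to the midpoint of the peak. These are intronic windows that touch no exon, printed 5′ to 3′ on the strand that reads the site, with the 9-base site in capitals.
Slc30a9 intron 15, chr5:67738546-67738606, minus strand: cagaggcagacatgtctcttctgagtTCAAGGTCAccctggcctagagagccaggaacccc
Zbtb7a intron 1, chr10:80601930-80601990, plus strand: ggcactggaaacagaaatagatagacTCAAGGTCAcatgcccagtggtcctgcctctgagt
Kcnk5 intron 1, chr14:20997883-20997943, plus strand: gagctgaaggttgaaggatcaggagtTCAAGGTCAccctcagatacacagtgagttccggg
Epcam intron 2, chr17:88037296-88037356, plus strand: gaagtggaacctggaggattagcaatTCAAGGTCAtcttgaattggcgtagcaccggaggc
Uck2 intron 1, chr1:169204265-169204325, plus strand: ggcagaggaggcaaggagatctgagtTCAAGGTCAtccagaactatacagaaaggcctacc
Plekha7 intron 3, chr7:123444819-123444879, minus strand: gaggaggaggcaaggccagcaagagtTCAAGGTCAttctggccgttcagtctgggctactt
Sulf2 intron 1, chr2:165966668-165966728, minus strand: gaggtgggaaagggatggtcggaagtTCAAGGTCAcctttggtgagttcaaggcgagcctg
The site lay 4 bp from the midpoint in Slc30a9, Zbtb7a and Kcnk5, 5 bp in Epcam, 7 bp in Uck2, 8 bp in Plekha7 and 14 bp in Sulf2. The others among the 15 protein-coding hosts with the site nearest to the midpoint were Etf1 (2 bp), Vash2 (3 bp), Cep152 (4 bp), Ndfip2 (5 bp), Pld1 (6 bp), Capn2 (7 bp), Fam109a (8 bp) and Ckmt1 (15 bp). Epcam encodes an epithelial adhesion molecule, Plekha7 a protein of adherens junctions, Slc30a9 a member of the zinc transporter family, Kcnk5 a potassium channel, Uck2 a kinase of pyrimidine salvage, Sulf2 an enzyme that edits heparan sulfate and Zbtb7a a zinc-finger repressor. In the windows of Slc30a9, Kcnk5, Uck2 and Plekha7 the bases GAGT stood directly before the site. Over all single-copy peaks with TCAAGGTCA this was so in 12 of 88 gene-body, 6 of 82 promoter and 6 of 63 intergenic peaks. It was so in 3 of 13 flanking windows. All 12 gene-body peaks were intronic, as were 75 of the 88 gene-body peaks with TCAAGGTCA.

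In other peaks the site recurred many times. These stretches of 141 bases around the midpoint are shown because each repeats the 7-base site AAGGTCA, in capitals.
Cep152 intron 6, chr2:125443311-125443451, minus strand: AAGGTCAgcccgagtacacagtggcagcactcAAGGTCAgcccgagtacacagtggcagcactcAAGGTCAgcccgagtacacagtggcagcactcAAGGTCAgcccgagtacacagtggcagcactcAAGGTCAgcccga
Agfg1 intron 1, chr1:82854017-82854157, plus strand: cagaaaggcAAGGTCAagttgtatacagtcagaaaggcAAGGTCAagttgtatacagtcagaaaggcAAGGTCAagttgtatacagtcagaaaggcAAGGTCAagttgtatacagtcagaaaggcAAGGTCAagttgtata
Capn2 intron 2, chr1:184431070-184431210, plus strand: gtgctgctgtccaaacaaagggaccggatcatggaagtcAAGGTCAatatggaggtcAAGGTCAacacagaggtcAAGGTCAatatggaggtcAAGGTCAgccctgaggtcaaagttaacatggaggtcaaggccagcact
The whole Cep152 peak held 13 sites with neighbouring sites 32 to 96 bp apart (median 32 bp), and the Agfg1 peak 11 sites 29 to 54 bp apart (median 29 bp). The Capn2 peak held 7 sites at unequal spacings of 18 to 54 bp. Cep152 encodes a centrosome protein and Capn2 a subunit of calpain. In each of these peaks all sites were on the same strand. Ndfip2 held the most, 17 sites exactly 28 bp apart within an exon of a kind that is neither coding nor untranslated. Vash2 held 13, Pld1 12, Camk2b 9, BC042782 8 and Tbc1d1 6. Agfg1, BC042782 and Tbc1d1 were named after their values had been seen. The 18 single-copy peaks with 3 or more sites held 124 of the 393 AAGGTCA sites counted over all single-copy gene-body peaks, and 60 of the 144 TCAAGGTCA sites. Of the remaining single-copy peaks, 40 held 2 sites, 189 held 1 site and 243 held none.

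Some peaks in the genes with the most peaks held no exact match to the core AGGTCA. The following 101 bases around the midpoint come from peaks whose whole 601 bp lack AGGTCA on both strands. They are shown as the counterpart of the site-centred windows, with no capitals because AGGTCA was not found.
St3gal4 intron 1, chr9:34874991-34875091, minus strand: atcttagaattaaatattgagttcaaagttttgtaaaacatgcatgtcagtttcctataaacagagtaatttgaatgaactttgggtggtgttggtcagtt
Slc5a1 intron 2, chr5:33464265-33464365, plus strand: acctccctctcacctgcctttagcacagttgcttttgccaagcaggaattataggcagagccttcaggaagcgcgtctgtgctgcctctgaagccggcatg
Sis intron 21, chr3:72736984-72737084, minus strand: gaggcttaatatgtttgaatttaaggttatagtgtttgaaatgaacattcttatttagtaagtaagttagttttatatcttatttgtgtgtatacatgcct
No AGGTCA was found in 8 of the 14 St3gal4 peaks, 4 of the 10 Slc5a1 peaks, 4 of the 8 Mgam peaks, 5 of the 7 Sis peaks, 1 of the 6 Atp1b1 peaks and 1 of the 4 Rbp2 peaks. Over all single-copy gene-body peaks AGGTCA was present in 329 of 490 (67.1%). This says only that these exact letters were not in the peaks. Looser matches to the core were not searched.

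Gene-body peaks were mainly intronic. The midpoint fell in an intron in 478 peaks (83.7%, 95% Wilson interval 80.5 to 86.5%), in a coding exon in 37, in an untranslated exon in 39 and in an exon of another kind in 17. All 39 untranslated exons were on the 3′ side of the coding sequence. The width of 36 of the intronic peaks also reached an exon. Protein-coding genes hosted 540 of the 571 peaks, lincRNA genes 14, processed transcripts 14 and pseudogenes 3. In 36 peaks the midpoint lay in more than 1 gene, and the host was then taken as the protein-coding gene with the longest coding sequence.

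The peaks were spread over a wide range of distances from promoters. The median distance to the nearest start site was 7134 bp, with quartiles at 3073.5 and 17982.5 bp. It was 1 to 5 kb in 216 peaks, 5 to 10 kb in 125, 10 to 50 kb in 189 and over 50 kb in 41. The farthest peak, in Il1rapl1, lay 287572 bp from a start site and was multi-copy, a term used here for a peak whose 24-base words had a median of more than 10 copies in the genome. Next to the 1 kb limit, the nearest included peaks were those of Zfp652 (1008 bp), Atp2a1 (1009 bp), 2010001A14Rik (1018 bp), Clec2e (1024 bp) and Leng9 (1027 bp). The nearest peaks left out that still lay within a gene were at Clca6 and Tmem171 (999 bp each), Bad (994 bp), Gm10721 (986 bp) and Abcc2 (971 bp).

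Multi-copy sequence made up 81 of the 571 gene-body peaks (14.2%), against 20 of 489 promoter peaks (4.09%) and 223 of 579 intergenic peaks (38.5%). It was found in 16 of 196 first-intron peaks (8.16%), in 65 of 282 later-intron peaks (23.0%) and in none of the 93 exonic peaks. Shares of peaks were compared throughout by Fisher's exact test, two-sided, with Benjamini-Hochberg adjustment within each set of comparisons where the p is called adjusted. Comparisons chosen after these values had been seen gave an odds ratio of 3.88 against promoter peaks (exact adjusted p = 5.17e-08) and 0.264 against intergenic peaks (exact adjusted p = 3.33e-20). First introns held less of it than later introns (odds ratio 0.297, exact adjusted p = 1.97e-05). Reads from such sequence may not be assignable to a single place, which was not measured here. The comparisons of sites below were therefore made on the 490 single-copy gene-body peaks.

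The first intron was the single most frequent place. It held 196 of 478 intronic peaks (41.0%, 36.7 to 45.5%), the second intron 91, the third 46 and introns beyond the tenth 54. In the hosts of intronic peaks, of any gene type, first introns made up 32.0% of the intronic bases more than 1 kb from a start site. In all protein-coding genes this was 25.3%. Averaged over the transcripts of the intronic peaks, that share was 33.2%. Among single-copy intronic peaks the first intron held 180 of 397 (45.3%). The share was 48.7% when an intron counted as first if it was so in any transcript across the midpoint. The median length of the intron hit was 22942 bp for first introns and 9086.5 bp for later ones, and the median distance of the peak from the gene start was 7961 and 28195 bp.

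Named examples of first-intron peaks cover several kinds of enterocyte gene. Hnf4a, a nuclear receptor gene that acts in enterocyte maturation, held 3 peaks in its first intron between 21002 and 22795 bp from the gene start, and 1 of them held TCAAGGTCA, 131 bp from the midpoint. They also lay inside the annotated gene 0610008F07Rik. Ezr, which encodes the microvillus linker ezrin, held 2 first-intron peaks with 1 AAGGTCA each. Plac8, an epithelial differentiation gene named here after its values were seen, held 3 first-intron peaks, of which 1 held AAGGTCA. At the far end, the highest intron number was 60, in Itpr1, which encodes a calcium channel of the endoplasmic reticulum and has 61 introns in the transcript used.

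Along the length of the host gene, the peaks were not gathered at the start. With each host gene cut into 5 equal bins from the 5′ to the 3′ end, the bins held 123, 130, 92, 96 and 130 peaks, the first and last being 21.5% and 22.8% of all. The bases of the host genes outside promoters were split nearly evenly, between 19.3% and 20.4% a bin. The middle bin held 16.1% of peaks (13.3 to 19.4%), below its 20.2% of the bases. In 41 peaks the midpoint lay within 1 kb of the annotated end of the gene.

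**Figure D1:**
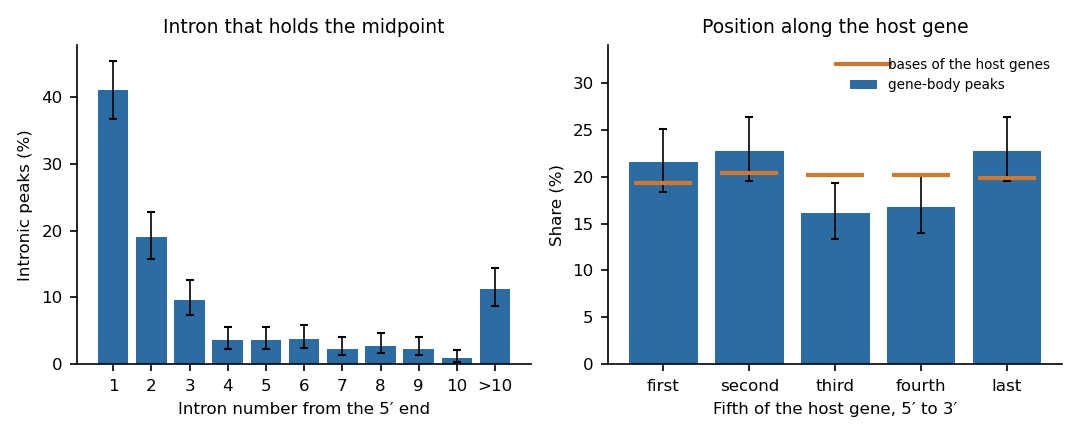
The left panel gives the share of the 478 intronic peaks in each intron, counted from the 5′ end, and the right panel the share of the 571 gene-body peaks in each of 5 equal bins along the host gene, with 95% Wilson intervals; orange marks give each bin's share of the bases of the host genes outside promoters. The first intron held 41.0% of intronic peaks, while the bins ranged from 16.1% to 22.8%.

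Peaks with the midpoint in a coding exon were few, and several were in genes of general or epithelial function. The midpoint lay 0.5 bp from the middle of a 132 bp exon in Sis, which encodes sucrase-isomaltase, and 3 bp from the middle of a 117 bp exon in Elf3, an epithelial ETS-family factor. The others nearest to the middle of their exon were in Vsig8, Nlrp6, Sgpl1, Dgkz, Gm20388, Ckmt1, Krt20 and Ccdc62. Vsig8 and Ckmt1 each held TCAAGGTCA, and Elf3 and Gm20388 held AAGGTCA only. Ckmt1 encodes a mitochondrial creatine kinase, Nlrp6 a sensor of the inflammasome family, Dgkz a diacylglycerol kinase, Sgpl1 sphingosine-1-phosphate lyase and Krt20 a keratin of mature enterocytes. The Apob peaks lay at 74.9% and 77.9% of the gene, both wholly within a single 7467 bp exon, and AAGGTCA was in neither. The site was present in 16 of 37 coding-exon peaks, 13 of 39 untranslated-exon peaks and 9 of 17 other exonic peaks. Over all exons this was 38 of 93 (40.9%) against 209 of 397 single-copy intronic peaks (52.6%), with an odds ratio of 1.61 (exact adjusted p = 0.0499, chosen after the values had been seen).

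The 571 peaks belonged to 441 host genes, of which 420 were protein-coding, or 1.88% of the 22367 protein-coding genes annotated. By comparison 465 protein-coding genes (2.08%) had a promoter peak. A single peak was found in 374 hosts, 2 in 46, 3 in 8, 4 in 7, and 6 or more in 6 genes. The 67 genes with at least 2 peaks held 197 peaks (34.5%), and the 21 genes with at least 3 held 105 (18.4%). Long genes hosted peaks more often. A peak was hosted by 0.643% of protein-coding genes up to 10 kb, 1.51% of those from 10 to 30 kb, 3.05% of those from 30 to 100 kb and 4.96% of longer ones. Among hosts, however, the median length was 49.1 kb with 1 peak, 45.2 kb with 2 and 58.7 kb with 3 or more. The median over all protein-coding genes was 15.4 kb.

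**Figure D2:**
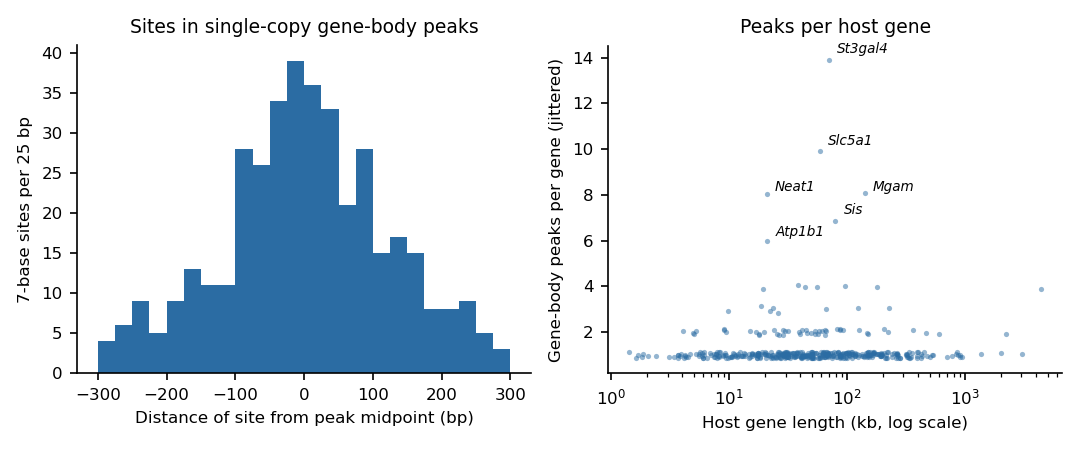
The left panel counts the 393 AAGGTCA sites of single-copy gene-body peaks by distance from the midpoint in bins of 25 bp, and the right panel sets the number of gene-body peaks per host gene (jittered) against gene length on a log scale for all 441 hosts. Sites were densest near the midpoint, and the 6 labelled genes with 6 to 14 peaks were between 20.8 and 140.3 kb long.

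The 6 genes with the most peaks were mainly genes of the enterocyte surface. St3gal4, a sialyltransferase of glycan synthesis, held 14 peaks over 70.2 kb, 12 of them in its first intron of 61048 bp. They ran from 6224 to 63934 bp after the gene start with a median gap of 2231 bp, 1 was multi-copy, and AAGGTCA was in 2. Slc5a1, which encodes the glucose transporter SGLT1, held 10 peaks over 58.7 kb, and AAGGTCA was in 1. Its peaks were split between the first intron (3), later introns (6) and a coding exon (1), and no TCAAGGTCA was found.

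Mgam and Sis, disaccharidase genes of the brush border, were also among the 6. Mgam, which encodes maltase-glucoamylase, held 8 peaks, of which 4 were in the first intron and 3 held AAGGTCA. Sis held 7 peaks, none in the first intron and 1 with AAGGTCA, and the last lay in intron 47 of 47, at 98.8% of the gene. The GC content of these peaks ran from 31.6% to 43.6% in Mgam and from 30.3% to 40.4% in Sis, below the median of 48.4% over single-copy gene-body peaks.

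Neat1, a long noncoding RNA of nuclear paraspeckles, held 8 peaks over 20.8 kb, all within its exon, and AAGGTCA was in 3. Atp1b1, which encodes the beta subunit of the sodium pump, held 6 peaks over 21.1 kb: 1 in the first intron, 3 in the second, 1 in the last coding exon and 1 in the 3′ untranslated part. AAGGTCA was in 3 of the 6, all in introns, and 1 held TCAAGGTCA 19 bp from the midpoint.

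Genes with 4 peaks included Lct, which encodes lactase, with TCAAGGTCA in its first-intron peak, 54 bp from the midpoint, and 2 multi-copy peaks in the second intron. Rbp2, the cellular retinol-binding protein of enterocytes, held 4 peaks over 19.2 kb. AAGGTCA was in 3 of them, and TCAAGGTCA lay 53 bp from the midpoint of the last. Trak1, an adaptor for mitochondrial transport along microtubules, had AAGGTCA in 3 of 4 peaks and Camk2b, a calmodulin-dependent kinase subunit, in 2 of 4. Abcc2, an organic anion exporter of the apical membrane, had AAGGTCA in none of its 4 peaks, all in the second intron. Gm16869, a lincRNA on chromosome 9, had 3 multi-copy peaks among its 4. Gm20388 is an annotation of 4435 kb that runs across other genes, and 3 of its 4 peaks also lay in Aprt, Rab4a or Acta1.

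**Figure D3:**
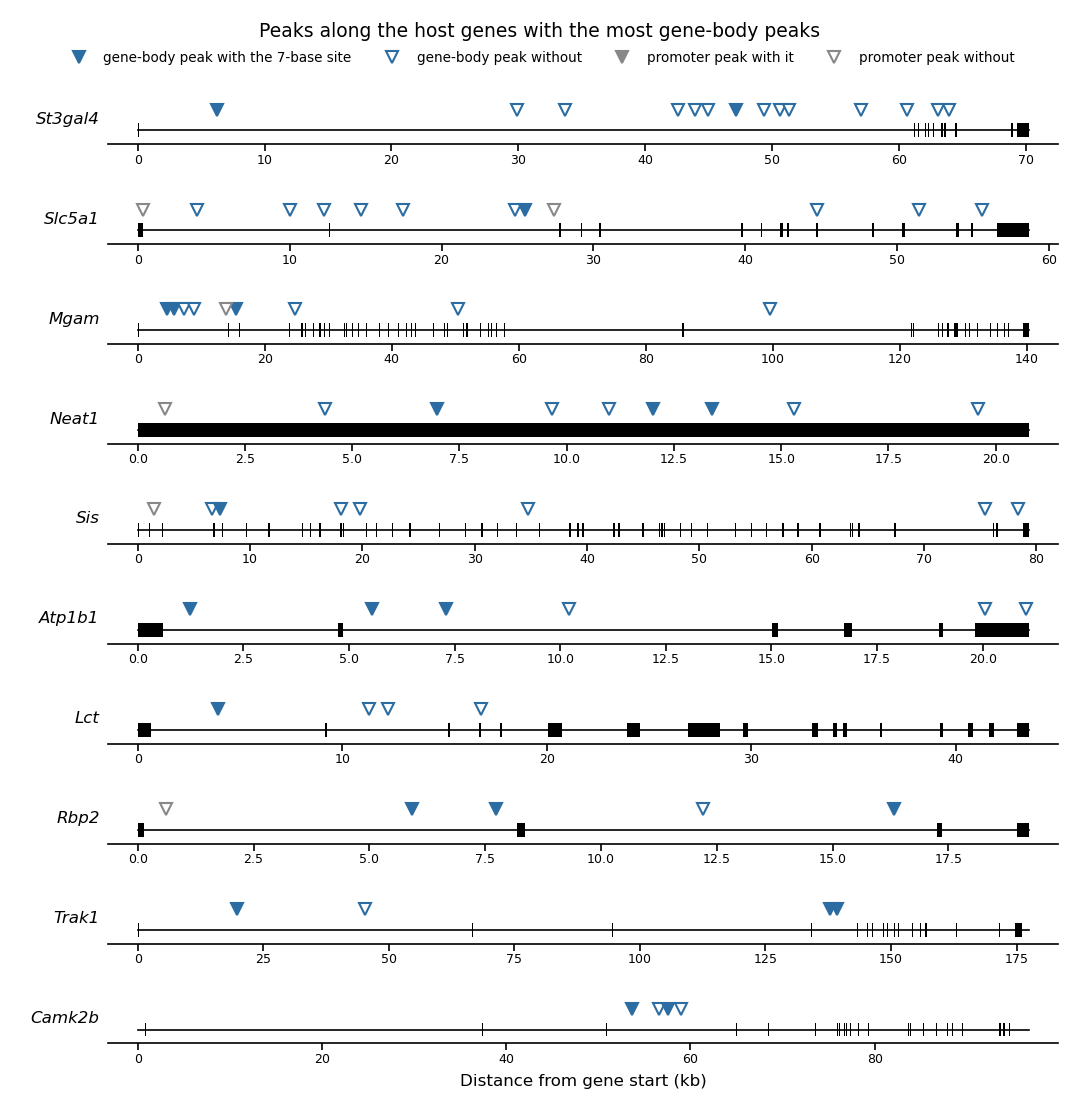
Each line is a host gene drawn from its start in kb, with exons as black blocks, gene-body peaks as blue triangles and promoter peaks as grey triangles, filled where the peak held AAGGTCA; Gm20388 and Gm16869 are left out. Open triangles predominate in St3gal4 (2 of 14 filled) and Slc5a1 (1 of 10 filled), while 3 of the 4 gene-body peaks of Rbp2 and of Trak1 are filled.

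The presence of a promoter peak went with the number of gene-body peaks. A gene counted as having a promoter peak if a peak lay within 1 kb of any of its annotated start sites, internal ones included. A gene with many peaks has more chances of a peak near an internal start, and the part of this in the shares below was not tested. Of the 420 protein-coding hosts, 50 (11.9%) also had a promoter peak, which was 10.8% of the genes with a promoter peak. The share was 9.30% (33 of 355) in hosts with 1 gene-body peak, 19.6% (9 of 46) with 2 and 42.1% (8 of 19, 23.1 to 63.7%) with 3 or more. Slc5a1, Mgam, Sis, Rbp2, Abcc2, Krt20 and Muc13 were among the hosts with both. The promoter peak within Mgam lay 13.9 kb after the gene start, and those within Slc5a1 lay at 0.333 and 27.4 kb.

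Gene-body peaks were also often close to another peak of any kind. Among single-copy peaks, 50.4% of gene-body peaks had another peak within 30 kb, against 33.9% of promoter peaks and 36.2% of intergenic peaks. The odds ratios were 1.98 (exact adjusted p = 6.28e-07) and 1.79 (exact adjusted p = 5.39e-05), in comparisons chosen after the values had been seen. Without the 6 hosts with the most peaks the share was 44.7%, with odds ratios of 1.58 (exact p = 0.000858) and 1.43 (exact p = 0.0167). Neighbouring peaks share this property by definition and are not independent, which Fisher's test does not allow for.

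The hosts were next set against lists of genes that act in the villus epithelium. The list genes below were written by hand with earlier results of these data known, so the counts are descriptions beside the share of all protein-coding genes with a gene-body peak (1.88%) and with a promoter peak (2.08%). In 7 lists of absorptive-cell and transcription genes the share with a gene-body peak was between 17.1% and 40.0%. It was highest for brush-border hydrolases and lowest, at 0%, for cytosolic ribosomal proteins, immune and stromal markers, and crypt and cell cycle genes. Peaks per Mb of gene body outside promoters, which allow for gene length, ran in these 7 lists from 2.02 for nuclear receptors and coregulators to 32.1 for the hydrolases, against 0.572 over all protein-coding genes.

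Genes of dietary lipid absorption held gene-body peaks in 9 of 36 cases (25.0%). Apob and Mttp, which build chylomicrons, held 2 each, and AAGGTCA was in 1 Mttp peak, in intron 5. Fabp1, a fatty acid binding protein, held 2 peaks, 1 with TCAAGGTCA 202 bp from the midpoint, and its relative Fabp2 held 1 peak without a site. Among enzymes of triglyceride synthesis, Agpat2 held TCAAGGTCA 16 bp from the midpoint of its peak, Dgat2 held AAGGTCA and Mogat2 held neither. Acsl5, which activates fatty acids, had AAGGTCA in a first-intron peak, and Npc1l1, the cholesterol uptake protein, had 2 AAGGTCA in a coding-exon peak.

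In the list of brush-border hydrolases 8 of 20 genes (40.0%) held gene-body peaks, with 26 peaks in all. Besides Sis, Mgam and Lct these were the peptidase genes Anpep, Enpep and Dpp4, the nucleotide hydrolase gene Enpp3, and Cndp2. Cndp2 encodes a cytosolic dipeptidase and not a brush-border enzyme, and its 1 peak, with AAGGTCA, is included in these counts. AAGGTCA was in 7 of the 26 peaks and TCAAGGTCA in 1, that of Lct. Dpp4 held 2 peaks in its second intron, 1 with AAGGTCA, and Anpep 2 peaks without it, of which 1 was multi-copy.

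Transporters held gene-body peaks in 6 of 35 cases (17.1%). Slc15a1, the peptide transporter PEPT1, held 2 peaks in introns 16 and 21, each with a single TCAAGGTCA, at 58 and 51 bp from the midpoint. Slc26a3, a chloride and bicarbonate exchanger, held 2 AAGGTCA in an intron 12 peak.

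Microvillus and junction genes held gene-body peaks in 10 of 36 cases (27.8%). Myo1a, the motor that ties the membrane to the microvillus core, held TCAAGGTCA 34 bp from the midpoint. Epcam held the sequence shown above. Ezr, Spnb2 (beta spectrin) and Eps8l2, an actin regulator, each held AAGGTCA, while the peaks of Cdh17, Pdzk1, Eps8, Krt20 and Actb did not. The Pdzk1 peak was multi-copy, and the Actb peak lay in the 3′ untranslated exon at 93.3% of the gene.

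In the glycan list 5 of 28 genes (17.9%) held a peak, namely St3gal4, B3gnt3, Muc13, Lgals4 and Mgat4a. Outside St3gal4 none of their peaks held AAGGTCA. Muc13, a membrane mucin, held 3 of them in introns 2 and 3.

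Transcription factors held gene-body peaks in 6 of 31 cases (19.4%). Besides Hnf4a and Elf3 these were Hnf4g, the relative of Hnf4a, with 2 AAGGTCA in a first-intron peak, Klf5 with 1, Tcf7l2, the Wnt effector, with TCAAGGTCA 255 bp from the midpoint, and Smad3, a mediator of TGF-beta signals, without a site. In the list of nuclear receptors and coregulators 7 of 39 genes (17.9%) held gene-body peaks. This list leaves out Hnf4a and Hnf4g and does not cover every nuclear receptor gene. Esrra itself held 1 peak, chr19:6994018-6994618, in its second intron, with TCAAGGTCA 83 bp from the midpoint and 1223 bp from the nearest start site. Vdr, the vitamin D receptor, and Thra, a thyroid hormone receptor, held 2 peaks each, 1 of them with AAGGTCA. Nr1i2, the xenobiotic receptor PXR, and the corepressor gene Nrip1 held AAGGTCA in first-intron peaks. The Nr1d1 peak held none, and the Rarb peak was multi-copy.

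Genes of the respiratory chain and ATP synthase had a different layout. Of 74 genes of oxidative phosphorylation, 42 (56.8%, 45.4 to 67.4%) had a promoter peak and 1 (1.35%, 0.239 to 7.27%) had a gene-body peak, close to the 1.88% of all protein-coding genes. That gene was Ndufa6, a subunit of complex I, whose peak held AAGGTCA and lay 1078 bp from the nearest start site. Their median length was 7.59 kb, and they held 1.25 gene-body peaks per Mb. In the list of tricarboxylic acid cycle and fatty acid oxidation 8 of 47 genes (17%, 8.89 to 30.1%) had a promoter peak. A gene-body peak was found in 2 (4.26%, 1.17 to 14.2%), an interval that includes the 1.88%. This list held 1.38 gene-body peaks per Mb, against 0.572 over all protein-coding genes. The 2 hosts were Mdh1, with TCAAGGTCA 47 bp from the midpoint, and Hadha, the trifunctional protein subunit, with AAGGTCA, both in the first intron. Mdh1 encodes the cytosolic malate dehydrogenase and not the mitochondrial one, and it is included in these counts.

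The remaining lists hold markers of other cells of the mucosa and genes of general function. Of 23 secretory markers 1 (4.35%, 0.772 to 21%) held gene-body peaks, Fcgbp, a goblet cell mucus protein, with 2. None of 24 immune and stromal markers, 20 crypt and cell cycle genes and 58 cytosolic ribosomal protein genes held one, with upper limits of the 95% Wilson interval at 13.8%, 16.1% and 6.21%. All these intervals include the 1.88% of all protein-coding genes.

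**Figure D4:**
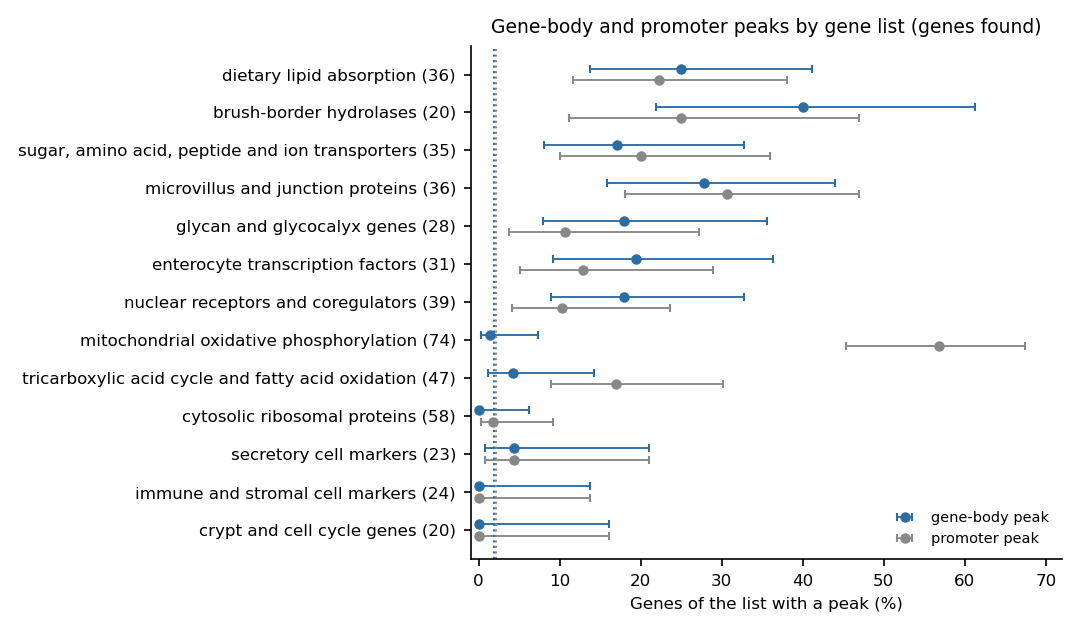
Points give the percentage of genes in each list with a gene-body peak (blue) and with a promoter peak (grey), with 95% Wilson intervals; dotted lines mark the shares of all protein-coding genes, 1.88% and 2.08%, and the number of genes is in brackets. Oxidative phosphorylation stands at 56.8% for promoter and 1.35% for gene-body peaks, and brush-border hydrolases at 25.0% and 40.0%.

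The final comparisons asked how often the ESRR site lay in gene-body peaks. AAGGTCA was searched on both strands. It lies within TCAAGGTCA and itself contains AGGTCA, so the counts are nested. It was present in 247 of 490 single-copy gene-body peaks (50.4%, 46.0 to 54.8%) and in 98 of 883 windows of the same length 2 kb away (11.1%, 9.19 to 13.3%), with an odds ratio of 8.14 (exact adjusted p = 4.1e-56). The 9-base TCAAGGTCA was in 88 (17.96%) against 13 windows (1.47%), with an odds ratio of 14.6. The reversed letters ACTGGAA, a negative control, were in 11.8% and 12.1% (exact adjusted p = 0.96). In multi-copy gene-body peaks AAGGTCA was in 8 of 81 and TCAAGGTCA in none.

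Among single-copy peaks no difference was detected between gene-body peaks and the other classes. AAGGTCA was in 52.0% of promoter peaks (odds ratio 0.937, exact adjusted p = 0.68) and in 52.0% of intergenic peaks (odds ratio 0.94, exact adjusted p = 0.68). The intervals were 47.5 to 56.5% for promoter and 46.8 to 57.1% for intergenic peaks, so that a gap of a few points could not be seen. With multi-copy peaks included the share was 44.7% in gene-body and 38.2% in intergenic peaks (odds ratio 1.31, exact adjusted p = 0.034). By distance from the nearest start site the share was 50.5% from 1 to 5 kb, 51.1% from 5 to 50 kb and 41.7% (10 of 24) beyond.

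Within gene bodies the site was not evenly spread. It was in 107 of 180 first-intron peaks (59.4%) and in 102 of 217 later-intron peaks (47.0%), with an odds ratio of 1.65 (exact adjusted p = 0.026). With TCAAGGTCA the shares were 20.0% and 17.97% (odds ratio 1.14, exact adjusted p = 1), so the call was lost. Within 100 bp of the midpoint the odds ratio was 1.44 (exact adjusted p = 0.16).

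Peaks in genes with many peaks held it less often. AAGGTCA was in 172 of 312 peaks of hosts with 1 peak (55.1%), 43 of 82 with 2 (52.4%) and 32 of 96 with 3 or more (33.3%), and the odds ratio of 1 against 3 or more was 2.46 (exact adjusted p = 0.00068). TCAAGGTCA was in 22.8%, 13.4% and 6.25%. Of the 53 peaks of the 6 top hosts 13 held AAGGTCA. Without these 6 genes the odds ratio was 1.62 (exact adjusted p = 0.25), and with 1 peak per run of peaks within 30 kb it was 1.84 (exact adjusted p = 0.26). The call was lost in both settings, each with fewer peaks.

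Hosts with a promoter peak and peaks with a neighbour showed the same direction, but these groups overlap with the hosts of 3 or more peaks. Of the 19 protein-coding hosts with 3 or more, 8 also had a promoter peak. These comparisons are therefore not independent of the comparison by number of peaks. In comparisons chosen after the values had been seen, AAGGTCA was in 216 of 391 single-copy peaks of hosts without a promoter peak (55.2%) and in 31 of 99 of hosts with one (31.3%), with an odds ratio of 2.71 (exact adjusted p = 3.55e-05). It was in 60.5% of peaks with no other peak within 30 kb and in 40.5% of those with one (odds ratio 2.25, exact adjusted p = 1.93e-05). Without the 6 top hosts the odds ratios were 2.45 (exact p = 0.00123) and 1.94 (exact p = 0.000744).

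**Figure D5:**
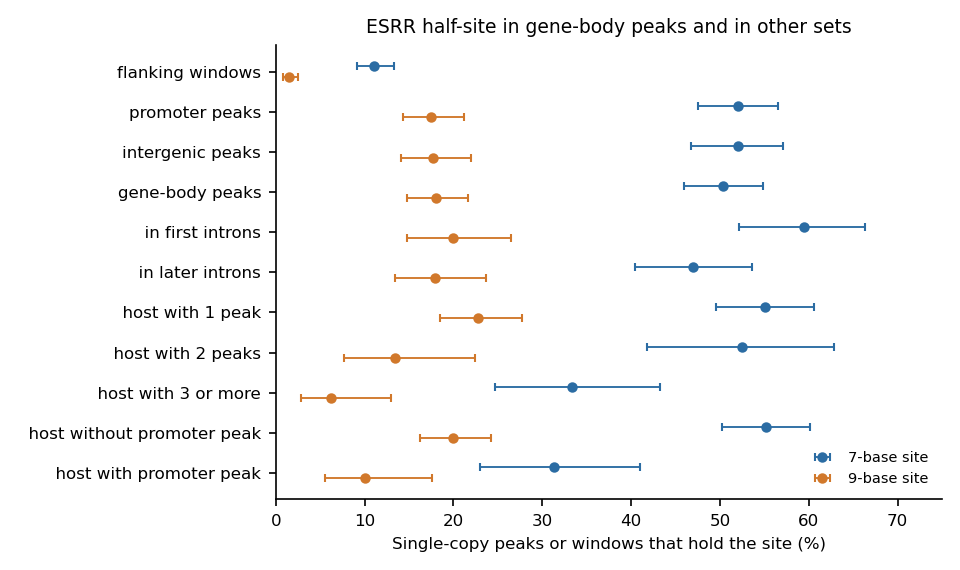
Points give the percentage of single-copy peaks or flanking windows with AAGGTCA (blue, 7 bases) and TCAAGGTCA (orange, 9 bases), with 95% Wilson intervals. Gene-body, promoter and intergenic peaks lie at 50.4%, 52.0% and 52.0% for the shorter site against 11.1% in flanking windows, and hosts with 3 or more peaks lie at 33.3%.

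Sites were gathered at the middle of the peaks. Of 393 AAGGTCA sites in single-copy gene-body peaks, 142 (36.1%) lay no more than 50 bp from the midpoint, against 66.7 for evenly spaced sites, a ratio of 2.13 (two-sided exact binomial test, p = 7.3e-20). In peaks with a single site it was 74 of 189, a ratio of 2.31. In hosts with 3 or more peaks 11 of 45 sites (24.4%) lay that close, against 120 of 295 (40.7%) in hosts with 1 peak, a difference that was not tested. Sites repeated within a peak are not independent. The 295 sites include 17 of the Ndfip2 peak, and the 45 include 9 of 1 Camk2b peak. The site read along the coding strand of the host gene in 205 of 393 cases (52.2%, two-sided exact binomial test, p = 0.42), so no preference for a strand was detected.

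Some of the other sequences searched differed in share between gene-body and promoter peaks. CAAAGTCCA, a site of the HNF4 receptors, was in 23 gene-body peaks (4.69%), in 1.47% of flanking windows (exact adjusted p = 0.0031 over 36 tests) and in 1.07% of promoter peaks (odds ratio 4.57, exact adjusted p = 0.0037). Against intergenic peaks (3.09%) no difference was detected (exact adjusted p = 0.49). Hosts with this sequence included St3gal4, Eps8l2, Neat1, Sgpl1 and 2010001A14Rik. AAGGTCA was in 10 of the 23 peaks (43.5%, 25.6 to 63.2%), beside 50.4% of all single-copy gene-body peaks. The sequence read by GATA factors, AGATAA, was in 32.2% of gene-body, 17.1% of promoter (exact adjusted p = 3.7e-07) and 25.5% of flanking sequences (exact adjusted p = 0.033). TTTATNG, a CDX site, was in 28.2% against 21.1% of promoter peaks (exact adjusted p = 0.048) and 24.1% of flanking windows (exact adjusted p = 0.23). The promoter-type sequences GGGCGGGG and CCGGAAG, read by SP/KLF and ETS factors, were in 4.49% and 3.88% of gene-body peaks against 22.8% and 17.7% of promoter peaks (exact adjusted p = 1.1e-16 and 1.3e-11). In intergenic peaks the shares were 37.1% for AGATAA, 29.8% for TTTATNG, 5.62% for GGGCGGGG and 6.74% for CCGGAAG. For none of them was a difference between gene-body and intergenic peaks detected (exact adjusted p = 0.33, 0.79, 0.72 and 0.19). No difference from promoter peaks was detected for TGANTCA, an AP-1 site (21.6% against 16.6%, exact adjusted p = 0.16), TGTTTAC, a FOX site (5.51% against 4.69%, exact adjusted p = 0.79), or GTTAATNA, an HNF1 sequence (6.12% against 4.05%, exact adjusted p = 0.35).

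GC content was also higher in promoter peaks. Its median was 48.4% in single-copy gene-body peaks, 47.6% in intergenic peaks and 56.6% in promoter peaks. The difference of 0.832 percentage points from intergenic peaks did not pass the test (two-sided permutation test of medians, p = 0.18). It was 3.33 points (permutation p = 1e-05, the smallest value that 100000 resamples can give) with multi-copy peaks included and 1.33 points (permutation p = 0.026) with 1 peak per run of peaks within 30 kb. The part of GC content in the differences from promoter peaks was not tested.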

How the data were processed

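Per the labels and the study's methods, paired reads from the ChIP and input libraries of villus cells were aligned to mm9 with Bowtie2 (2.2.6, per the labels' processing notes), both ChIP libraries were merged, and the authors called peaks with MACS2 at p = 1e-05. The deposited list holds a chromosome, start and end per peak, with no score, p-value or count. How all peaks came to be 601 bp wide is not given in the sources used here. The list does not give the depth of each sample, so intervals cover counting error between peaks only. Merging hides peaks present in 1 library alone.

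Peaks were classed by midpoint with GENCODE M1 (37273 genes, 95458 transcripts). Introns were numbered on the host transcript with the longest coding sequence. The copy number of 24-base words was counted on both strands of the genome, and multi-copy peaks were those with a median above 10. Flanking windows 2 kb away touched no peak or assembly gap. Sites were exact matches. Fisher's tests were adjusted by Benjamini-Hochberg over 5 planned comparisons, 8 chosen after values were seen, and 36 in the panel of 12 sequences. Python 3.11.15, SciPy 1.17.1, NumPy 2.4.6 and pysam 0.24.0 were used. The steps were tested on simulated data.

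The members, lists and tests were chosen with earlier results of these data known. Genes named were the 12 hosts with the most peaks, the 15 with TCAAGGTCA nearest the midpoint, list genes with a peak, 10 coding-exon hosts nearest the exon middle, the 5 peaks on each side of the 1 kb limit, and genes that a count of 5 or fewer singles out. Of the 13 lists (471 entries), all symbols were found, 3 under older names. Some items that this rule names are not reported here.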

Additional observations from a re-analysis of the deposited data

How the results depend on the processing

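Of 51 alternatives over 12 results, 36 kept the direction and the side of the threshold or moved a count by less than 1.5 times. The odds ratio of AAGGTCA in gene-body against promoter peaks turned to 1.03 with TCAAGGTCA, 1.04 with 1 peak per run, 1.04 within 100 bp of the midpoint and 1.06 without the 6 top hosts, none past the threshold. Against intergenic peaks it turned to 1.02, 1.05 and 1.06 for the first, second and last of these settings, and to 1.31 (Fisher's exact test, adjusted p = 0.034) with multi-copy peaks included. First against later introns lost its call with TCAAGGTCA (1.14) and within 100 bp of the midpoint (1.44). Hosts with 1 against 3 or more peaks lost theirs with 1 peak per run (1.84) and without the 6 top hosts (1.62), with fewer peaks in both. The GC difference passed the threshold with multi-copy peaks (3.33 points) and with 1 peak per run (1.33 points, permutation p = 0.026). The first-intron share moved to 48.7% when any transcript counted. The causes were not tested. The setting without the 6 top hosts and that of single-site peaks were chosen after seeing the data. Leaving out a ChIP library and a stricter MACS2 threshold were not run, since the list holds neither libraries nor scores. No paired analysis was possible because the peaks of both libraries came as 1 merged list.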
